A study of Mus musculus with 102 samples.

Results

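The comparison set 3 wild-type Cre samples taken 4 days after transduction against 3 non-transduced wild-type samples of day 0, 6 of the 102 samples of the series, at every CpG with a methylation level in all 6. These were 396 of 405 deposited CpGs, in 63 of 65 amplicons. The 9 CpGs left out lie in 2 amplicons near Cradd and in Akap6. The cells are C57BL6/J mouse embryonic stem cells with wild-type TET, and all groups carry floxed catalytic exons of Dnmt3a and Dnmt3b. Day 0 and mock-treated cells are labelled Dnmt3a/3b intact and Cre-treated cells Dnmt3a/3b catalytic dead. Cre was given as a protein, the mock received its buffer, the extent of excision at day 4 was not analysed here, and cells left their feeder layer in the days after transduction, so that day 4 differs from day 0 in culture as well as in treatment. The comparison asks whether the early rise of methylation seen in mock-treated cells also occurred after Cre. Wild-type mock samples of day 4 (3) are given beside this comparison. So are samples of the TTKO line, 1 clone that lacks Tet1, Tet2 and Tet3 (3 at day 0, 3 at Cre day 4 and 3 at mock day 4). Wild-type Cre and mock samples of later days, up to day 29, are given for what followed. The study calls its replicates biological, and the labels number them without saying whether they were separate cultures, so p-values measure the spread between these samples.

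DNMT3A and DNMT3B place methyl groups on unmethylated CpGs, DNMT1 copies methylation to the new strand at replication, and TET enzymes oxidize methylcytosine as a step towards its removal. In embryonic stem cells most CpGs are highly methylated. CpG island promoters are unmethylated regions (UMRs), and distal regulatory elements bound by transcription factors are low-methylated regions (LMRs), where methylation is gained and removed continually. The amplicons cover UMRs, fully methylated regions (FMRs), LMRs shared between cell types (constitutive, some bound by the factors CTCF or REST) and LMRs specific to embryonic stem (ES) cells or to neuronal progenitors (NP). At day 0 the ES-specific LMRs averaged 29.2% and the NP-specific LMRs 80.5%.

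Amplicon bisulfite sequencing reads the share of cytosines that resist conversion, and the level of a CpG is the percent of its reads called methylated. Each day 0 sample had 2310418 to 2897816 reads on CpGs and each Cre day 4 sample 3779878 to 4704933, so depth moved with the comparison. Its part in the results was not tested beyond a minimum of 1000 reads in every sample, which gave nearly the same mean difference (4.74 percentage points, against 4.92 over all CpGs). Replicates correlated across 345 CpGs with r of 0.988 to 0.992 at day 0, 0.971 to 0.977 at Cre day 4 and 0.867 to 0.920 at mock day 4, where CpGs are not independent. The mock samples were thus the most variable. No pair of the 6 samples agreed within counting error.

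The regions below hold CpGs described in the results. Sequences are the plus strand of mm9 (NCBIM37), measured CpGs are in capitals, and genes are from GENCODE M1. The first is the amplicon with the largest rise, in an intron of Zfp704, a zinc finger gene, at chr3:9601410-9601646. The next 3 are amplicons that hold a CpG past the test: an intron of Arhgef15 at chr11:68769048-68769189, a coding exon of Calhm2 at chr19:47210058-47210254 and an intron of Traf3, an adaptor of tumour necrosis factor receptors, at chr12:112492608-112492772. The last is 52 bases of a REST-bound LMR at chr2:23146839-23146890, an intergenic site whose named CpG lies 24215 bases from 4931423N10Rik, with the 2 CpGs past the test in this window in capitals.
Zfp704: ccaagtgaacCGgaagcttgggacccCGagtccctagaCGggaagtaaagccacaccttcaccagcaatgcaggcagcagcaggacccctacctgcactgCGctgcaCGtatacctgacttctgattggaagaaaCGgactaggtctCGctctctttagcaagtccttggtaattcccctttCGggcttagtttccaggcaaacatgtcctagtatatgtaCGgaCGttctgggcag
Arhgef15: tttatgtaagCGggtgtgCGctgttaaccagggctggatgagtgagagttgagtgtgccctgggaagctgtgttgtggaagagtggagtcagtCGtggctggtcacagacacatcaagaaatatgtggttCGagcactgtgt
Calhm2: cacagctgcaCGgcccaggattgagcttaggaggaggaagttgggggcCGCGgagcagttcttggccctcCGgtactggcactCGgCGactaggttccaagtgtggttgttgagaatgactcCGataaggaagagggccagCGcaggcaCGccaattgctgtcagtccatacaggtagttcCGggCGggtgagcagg
Traf3: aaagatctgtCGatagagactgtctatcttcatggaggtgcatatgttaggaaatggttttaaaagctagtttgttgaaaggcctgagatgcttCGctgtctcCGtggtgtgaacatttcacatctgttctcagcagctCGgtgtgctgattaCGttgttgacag
REST-bound LMR: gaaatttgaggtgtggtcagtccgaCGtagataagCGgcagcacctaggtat

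Mean methylation was higher at Cre day 4 than at day 0. Over the 396 CpGs the day 0 samples averaged 27.8%, 27.0% and 27.5%, and the Cre samples 33.3%, 32.6% and 31.1%. Every Cre sample lay above every day 0 sample. The group means were 27.4% ± 0.395 and 32.3% ± 1.11 (SD, n = 3 each), a difference of 4.92 percentage points (SE 0.679) with p = 0.10 in a two-sided exact permutation test, the smallest p that 3 samples against 3 allow. The early rise was thus also measured after Cre, though this test cannot pass 0.05 in so small a design. It was 4.29 percentage points without the Zfp704 amplicon and 6.42 without the UMRs.

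Of the 396 CpGs, 282 had a higher mean at Cre day 4. In 123 (31.1%) every Cre level lay above every day 0 level, and in 30 (7.58%) every Cre level lay below. Each CpG was tested on its methylated and unmethylated reads (quasi-binomial logistic regression), where the spread between replicates sets the error and p-values are adjusted (Benjamini-Hochberg) over all CpGs tested. By this test 17 CpGs (4.29%) passed an adjusted p of 0.05, all 17 higher at Cre day 4, in 10 amplicons. At an unadjusted p under 0.05 there were 126, of which 111 were higher. The number of calls depended on single libraries. It was 0 without day 0 replicate 1 (67 at an unadjusted p under 0.05), 0 without day 0 replicate 2 (76 unadjusted) and 8 without day 0 replicate 3. It was 29 without Cre replicate 2 and 60 without Cre replicate 3, of which 55 were higher and 5 lower. A linear model on log2 odds (limma) called 5 CpGs, all higher, of which 3 were among the 17.

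**Figure D1:**
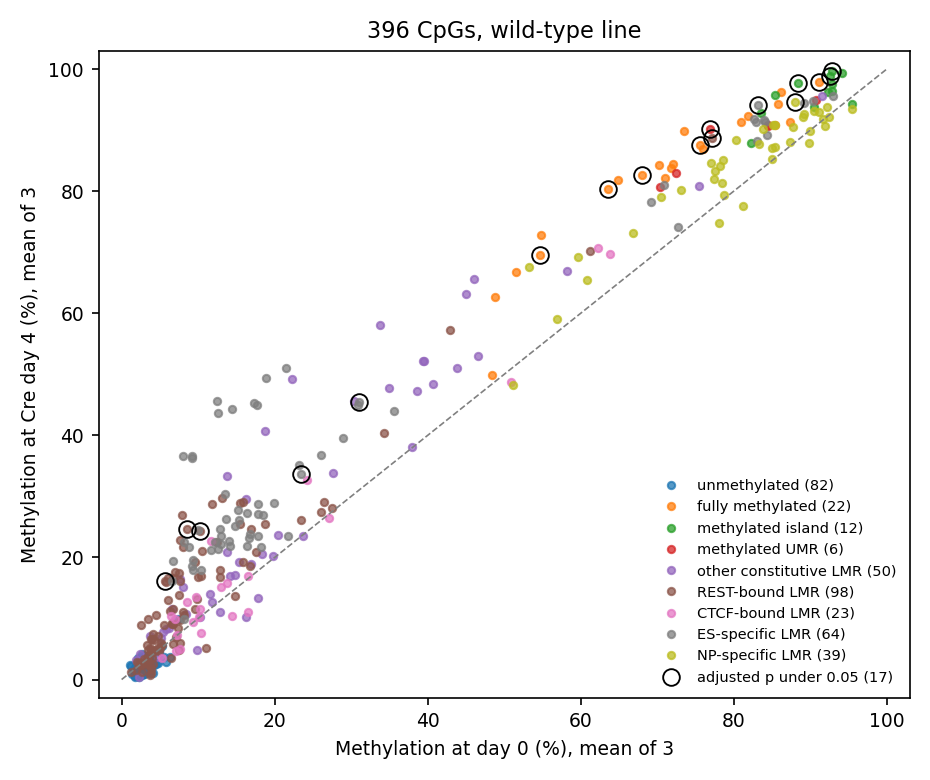
Each point is a CpG, with its mean level in 3 day 0 samples on the x axis and in 3 Cre day 4 samples on the y axis (percent), coloured by region class with the number of CpGs in brackets. The dashed line marks equal levels and open circles the 17 CpGs past the test, all of which lie above the line, while 282 of all 396 CpGs do.

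Class means are given as a description, and neither they nor the differences between classes were tested. Of 9 classes, 7 were higher at Cre day 4 with no overlap between the samples, the UMRs were lower with no overlap, and the CTCF-bound LMRs overlapped.

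ES-specific LMRs were higher in every Cre sample than in every day 0 sample, and 1 amplicon weighed heavily in the size of the difference. The class is named for low methylation in ES cells, but its 13 CpGs in Zbtb20 averaged 82.3% ± 2.24 (SD, n = 3) at day 0. The day 0 samples ranged from 27.7% to 30.6% and the Cre samples from 37.2% to 46.7% over 64 CpGs in 6 amplicons. The mean difference was 12.2 percentage points, from 29.2% ± 1.49 to 41.4% ± 4.81 (SD, n = 3). All 64 CpGs had a higher mean, 38 with no overlap (59.4%, against 31.1% over all CpGs), and 3 passed the test (4.69%, near the 4.29% over all CpGs). Without the Zfp704 amplicon, a choice made after its values were seen, the other 54 CpGs differed by 9.02 percentage points, and without Cre replicate 1 the class differed by 9.55. The Cre samples differed among themselves by more than the day 0 samples.

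FMRs rose from a high level. The day 0 samples ranged from 70.1% to 72.3% and the Cre samples from 81.1% to 83.7% over 22 CpGs. The difference was 11.6 percentage points (8.52 on pooled reads). All 22 CpGs had a higher mean, 20 with no overlap (90.9%, against 31.1% over all CpGs), and 5 passed the test (22.7%, against 4.29% over all CpGs). The methylated UMR near Tuba3a, an alpha tubulin gene, went from 79.9% ± 0.386 to 88.4% ± 1.53 over 6 CpGs. The methylated island in AU022751 went from 90.2% ± 1.58 to 95.9% ± 0.442 over 12 CpGs (SD, n = 3 each).

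Constitutive LMRs were split. The 98 CpGs bound by REST, a repressor of neuronal genes outside neurons, averaged 9.71% ± 0.348 at day 0 and 13.8% ± 0.337 at Cre day 4, with 29 CpGs higher without overlap (29.6%) and 4 past the test (4.08%), shares near those over all CpGs (31.1% and 4.29%). Another 4 CpGs were lower without overlap (4.08%, against 7.58% over all CpGs). The 23 CpGs bound by CTCF, an insulator protein, averaged 18.0% ± 0.922 and 19.4% ± 0.835, with 3 CpGs higher and 3 lower without overlap (13.0% each, against 31.1% and 7.58% over all CpGs) and none past the test (2 at an unadjusted p under 0.05). The other constitutive LMRs averaged 22.4% ± 0.740 and 28.3% ± 1.87 over 50 CpGs (SD, n = 3 each), a difference of 5.96 percentage points that was 2.94 on pooled reads. Only the CTCF-bound samples overlapped between the groups. NP-specific LMRs, which were already methylated in these cells, went from 80.5% ± 1.01 to 83.7% ± 0.839 over 39 CpGs.

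UMRs went the other way. The 82 CpGs in 9 amplicons averaged 2.70% to 3.10% in the day 0 samples and 1.97% to 2.27% in the Cre samples, a difference of -0.857 percentage points. In 21 CpGs (25.6%, against 7.58% over all CpGs) every Cre level lay below every day 0 level, and in 1 (1.22%, against 31.1%), in B3galt4, every Cre level lay above. None passed the test, and 13 reached an unadjusted p under 0.05, all lower. All 9 UMR amplicons had a lower mean, 6 without overlap. Levels this low lie where incomplete conversion would also be read as methylation, and its part was not tested. The same 82 CpGs were also lower at Cre day 4 in the TTKO line, by 1.67 percentage points.

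The size of the change in percentage points followed the level of the CpG. CpGs were grouped by the midpoint of the 2 group means, which favours neither group. The 115 CpGs up to 5% had a mean difference of -0.685 percentage points, and the 46 from 5% to 10% one of 1.62. It was 6.64 over 72 CpGs from 10% to 20%, 12.1 over 38 from 20% to 30%, 12.7 over 25 from 30% to 50% and 11.4 over 16 from 50% to 70%. Above that it was 7.10 over 56 CpGs from 70% to 90% and 4.09 over 28 above 90%. The rise was therefore largest in percentage points at intermediate levels, where a given change in odds also moves the percentage most. The bins from 20% to 50% hold the Zfp704 CpGs. Their median differences were 10.5 (20% to 30%) and 10.8 (30% to 50%), against 11.7 from 50% to 70%. In odds the rise did not peak at intermediate levels. The median log2 odds ratios of the bins from 10% upwards were 0.92, 0.96, 0.75, 0.74, 0.76 and 0.99. CpGs within 1000 bases of a transcription start site, most of them in UMRs, differed by -0.257 percentage points (77 CpGs), and those farther away by 6.17 (319 CpGs). The local density of CpGs had a Spearman correlation of 0.020 with the difference across all 396 CpGs and of 0.24 across the 314 outside UMRs, where CpGs of an amplicon share reads.

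Of the CpGs with the largest rises past the test, with at most 1 per amplicon, 4 lay in introns or near genes of the FMR and methylated UMR classes. The Arhgef15 CpG at chr11:68769066 had 63.4%, 57.7% and 69.7% at day 0 and 81.4%, 80.2% and 79.6% after Cre. Its log2 odds ratio was 1.20 ± 0.174 (SE), with an adjusted p of 0.0146 in the quasi-binomial test. The Cre levels lay close together above all day 0 levels. An intronic CpG of Atp2b2, which encodes a plasma membrane calcium pump, at chr6:113705585 had 67.4%, 64.0% and 72.8% at day 0 and 83.2%, 84.0% and 81.0% after Cre. The intronic Traf3 CpG at chr12:112492618 had 76.0%, 72.7% and 78.1% at day 0 and 86.2%, 89.8% and 86.5% after Cre. The CpG 436 bases from Tuba3a at chr6:125236496 had 77.5%, 74.5% and 78.5% at day 0 and 91.4%, 89.2% and 89.8% after Cre. In all of these the lowest Cre level was above the highest day 0 level, which the rule for naming them required. The adjusted p was 0.0479 for Atp2b2, 0.0157 for Traf3 and 0.0121 for Tuba3a. By limma all 4 missed the threshold (adjusted p of 0.0565 for Tuba3a and 0.0771 for the others), and so they did without day 0 replicate 1 or 2. With the replicate block Atp2b2 was at 0.0861.

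The other 4 lay in LMRs. The CpG at chr2:23146864 in the REST-bound LMR near 4931423N10Rik had 10.1%, 7.66% and 7.89% at day 0 and 24.8%, 28.6% and 20.5% after Cre, a log2 odds ratio of 1.80 ± 0.312 (SE; adjusted p = 0.0262). Every Cre level was above every day 0 level, and 3 of the 14 CpGs of this amplicon passed the test. The CpG of a second REST-bound LMR, 126967 bases from Adra2a, the alpha-2A adrenergic receptor gene, had 4.77%, 4.95% and 7.35% at day 0 and 15.7%, 18.2% and 14.4% after Cre (adjusted p = 0.0262). The Calhm2 CpG at chr19:47210199, in an ES-specific LMR, had 28.0%, 30.6% and 34.6% at day 0 and 47.3%, 48.7% and 40.6% after Cre (adjusted p = 0.0352). A coding-exon CpG of the transcription factor gene Zbtb20 at chr16:43609720 had 83.0%, 81.1% and 85.5% at day 0 and 95.4%, 94.6% and 92.2% after Cre (adjusted p = 0.0262). None of these overlapped between the groups, by the same rule. With the replicate block Calhm2 (adjusted p = 0.0648), Adra2a (0.0621) and Zbtb20 (0.0510) missed the threshold. By limma, and without day 0 replicate 1, 2 or 3, all 4 did, so none of the 8 named CpGs was among the 5 that limma called. The 17 called CpGs differed by 6.34 to 16.8 percentage points, and the remaining 2 amplicons among the 10 were in AU022751 and an intron of Aff3.

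No CpG was lower by the test, so the 8 largest falls without overlap had all missed the threshold. The largest was a CpG 85 bases from Fggy, a carbohydrate kinase gene, at 18.3%, 13.8% and 16.6% at day 0 and 7.60%, 10.4% and 12.5% after Cre (adjusted p = 0.0862). A REST-bound CpG near Slc29a4 had a difference of -6.01 percentage points (adjusted p = 0.307), and a CTCF-bound CpG near Apob, the apolipoprotein B gene, one of -5.53 (adjusted p = 0.305). The others were near Lonrf2, bound by CTCF, and in UMRs near Id3 and Hdac2 and in 1810063B07Rik and Tmem106b, with differences of -3.12 to -2.23 percentage points. The falls were thus smaller than the called rises and came mostly from low levels.

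The CpGs nearest to the median difference of their class are given as typical members. In the ES-specific LMRs this was another Zbtb20 CpG, from 70.9% ± 2.69 to 81.0% ± 5.66, and in the FMRs a second Arhgef15 CpG, from 71.8% ± 3.33 to 83.7% ± 3.39. In the REST-bound LMRs it was a CpG near Slc29a4, from 8.17% ± 0.503 to 10.6% ± 2.08 (SD, n = 3 each). None of the 9 class-median CpGs passed the test. For 1810063B07Rik in the UMRs and 2700060E02Rik in the CTCF-bound LMRs the difference of means (-1.03 and 0.493 percentage points) and the fitted log2 odds ratio (0.062 and -0.19), which weights samples by reads, had opposite signs.

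Whole amplicons moved together in part. Of 63 amplicons, 27 had a mean above day 0 in every Cre sample, 8 below in every Cre sample and 28 overlapped. All 27 were outside the UMRs. Of the 8 lower ones, 6 were UMRs and the other two the amplicons near Apob and Fggy. Amplicon means differed with an SD of 5.43 percentage points between amplicons, and CpGs of an amplicon differed with an SD of 3.86.

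The Zfp704 amplicon stood out. Its 10 CpGs averaged 11.2%, 13.0% and 18.1% in the day 0 samples and 59.7%, 45.9% and 24.6% in the Cre samples. All 10 CpGs were higher with no overlap, by 27.1 to 33.2 percentage points, but the Cre samples spread widely and no CpG passed the test (adjusted p of 0.0797 to 0.214). The mean difference was 29.3 percentage points, from 14.1% ± 3.55 to 43.4% ± 17.7 (SD, n = 3). In the mock samples of day 4 the amplicon had 16.6%, 21.9% and 29.2%, so that Cre replicate 3 lay within the mock range. At day 8 it was at 16.5% ± 10.6 after Cre and at 44.4% ± 15.2 after mock. By Cre day 29 it was at 2.43% ± 0.918.

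Among the amplicons with 3 or more CpGs, the next highest mean differences were in Atp2b2, from 55.8% ± 2.72 to 71.2% ± 2.49, in an intron of Acot7, an acyl-CoA thioesterase gene, from 75.4% ± 1.09 to 87.5% ± 3.40, and at an intergenic LMR 62897 bases from Col1a1, a collagen gene, from 22.6% ± 1.45 to 34.0% ± 1.45. The lowest were the amplicons near Apob, from 12.5% ± 0.802 to 10.6% ± 0.475, at the start of Tmem106b, from 3.08% ± 0.0900 to 1.79% ± 0.764, and in introns of Agfg1 and 1810063B07Rik, each lower by 1.07 percentage points (SD, n = 3 each).

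**Figure D2:**
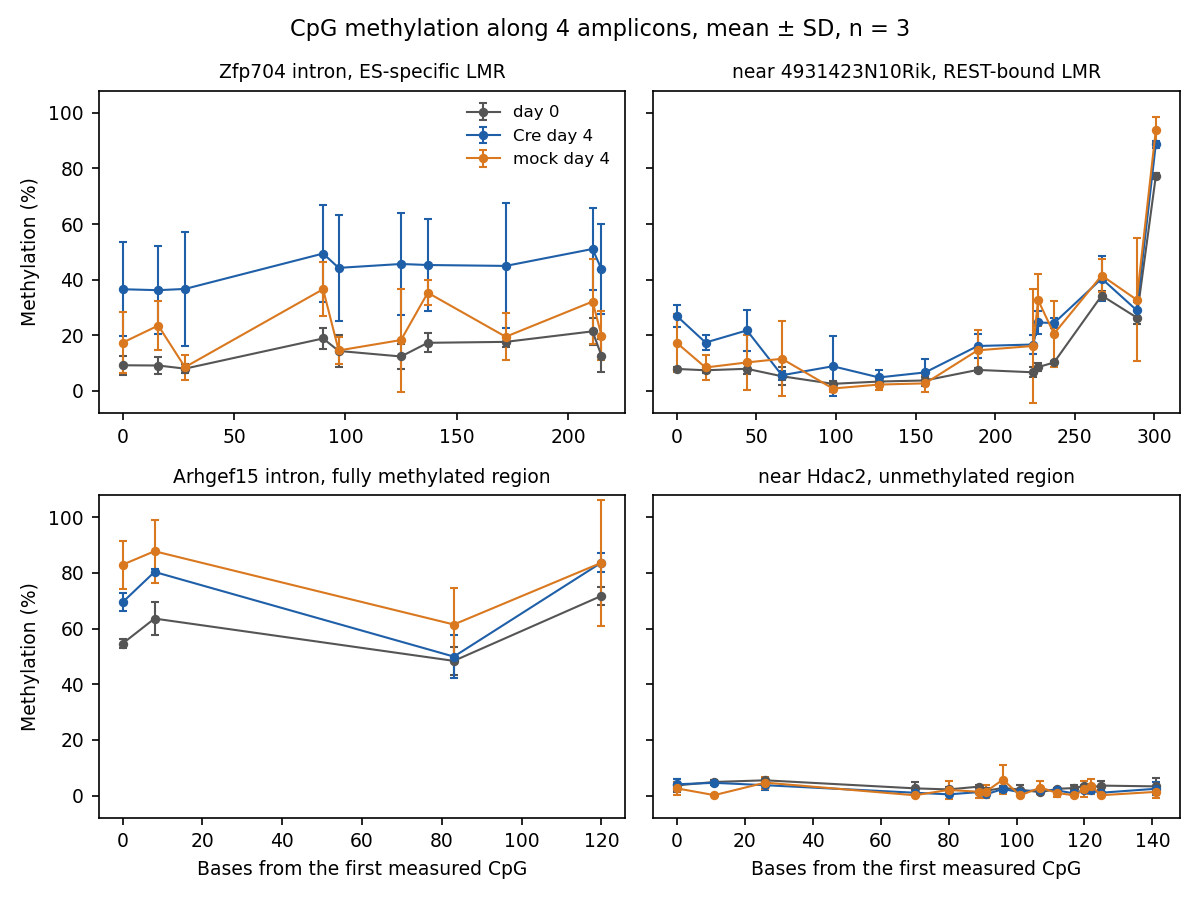
Methylation (percent) of each CpG against its distance in bases from the first measured CpG, for day 0, Cre day 4 and mock day 4, as mean ± SD of 3 samples. The Zfp704 CpGs had higher means after Cre by 27.1 to 33.2 percentage points, with samples that spread widely and none past the test, the Arhgef15 and REST-bound amplicons hold CpGs past it, and the mean of the UMR near Hdac2 was lower by 1.07 percentage points.

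The rise after Cre was smaller than after mock treatment. Over 372 CpGs with a level in all 9 samples, the mock samples averaged 40.0%, 37.7% and 35.0%, the Cre samples 33.1%, 32.3% and 30.9% and the day 0 samples 27.4%, 26.6% and 27.1%. The 3 groups did not overlap, and Cre lay between day 0 and mock. The mock difference from day 0 was 10.6 percentage points (SE 1.47) and the Cre difference 5.07 (SE 0.682). These share the day 0 samples, and their difference is Cre minus mock at day 4, -5.51 percentage points (SE 1.59; two-sided exact permutation test, p = 0.10 for each, the smallest possible).

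Per CpG, 17 of 381 (4.46%) passed the test for mock day 4 against day 0, all higher. With the replicate number as a block the count was 0, and limma called 28, of which 13 were higher and 15 lower. The count was 0 without any 1 of the day 0 replicates and 61, 92 and 121 without mock replicates 1, 2 and 3. Between Cre and mock at day 4, 0 of 372 CpGs (0%) passed the quasi-binomial test, 60 reached an unadjusted p under 0.05 and limma called 4. No single CpG was thus shown to differ between them by the main test. Mock day 4 had a higher mean than Cre day 4 in 13 of the 17 CpGs called after Cre and in 264 of all 372 (71.0%).

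In 8 of 9 classes the Cre samples lay below all mock samples, and the exception was the ES-specific LMRs. CTCF-bound LMRs differed by 1.93 percentage points after Cre and 13.3 after mock over 20 CpGs. Other constitutive LMRs differed by 6.29 and 20.6 over 43 CpGs, and FMRs by 11.6 and 18.2 over 22 CpGs. ES-specific LMRs differed by 12.2 and 15.5 over 64 CpGs, with Cre samples at 37.2% to 46.7% and mock samples at 39.3% to 53.1%. The gap between the treatments was therefore wide in CTCF-bound and other constitutive LMRs and within the sample ranges in ES-specific LMRs. The mean change after Cre exceeded that after mock in 8 of 57 amplicons, among them Zfp704 (29.3 against 8.46 percentage points).

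**Figure D3:**
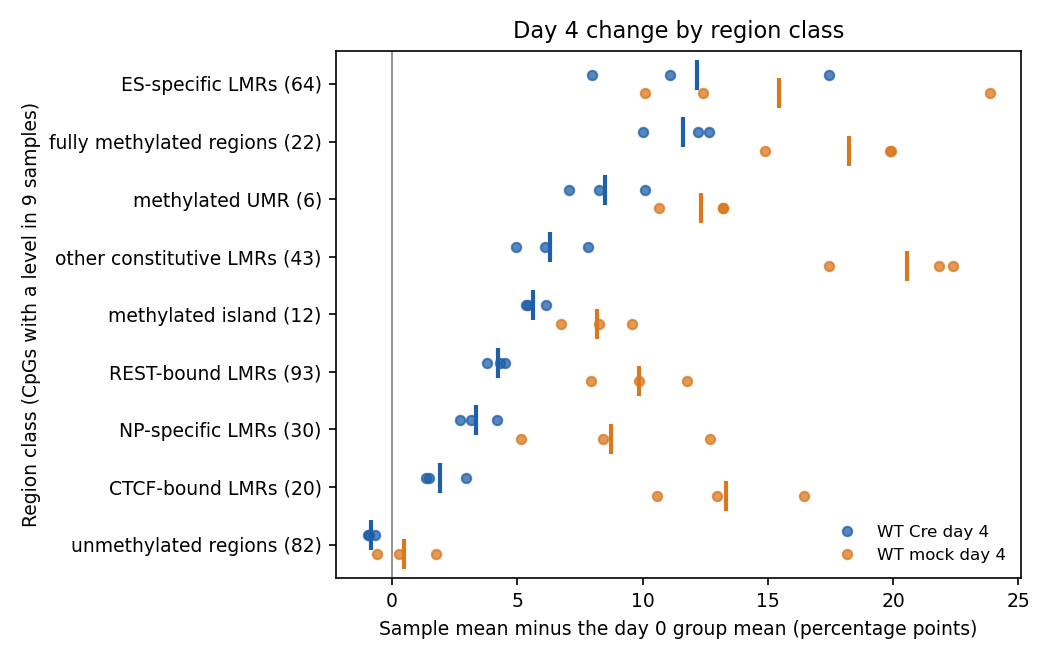
Each point is a sample's class mean minus the day 0 group mean (x axis, percentage points) for WT Cre day 4 and WT mock day 4, vertical ticks mark group means, and classes are listed with their CpGs with a level in 9 samples. Cre lies to the left of mock in every class, with no overlap in 8 of 9, and below 0 in unmethylated regions.

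The rise of the mean after Cre was short-lived. Over 278 CpGs with a level in all 39 wild-type amplicon samples, the mean went from 28.3% ± 0.460 at day 0 to 33.4% ± 0.991 at Cre day 4 (SD, n = 3 each). By Cre day 8 the mean was back at 29.3% ± 0.959, and day 10 gave 27.3% ± 2.38. Day 13 gave 23.4% ± 0.974, day 17 gave 20.7% ± 1.06 and the last time point, day 29, 15.9% ± 0.191. Every Cre sample of day 13 and later lay below every day 0 sample. In the mock it was 38.6% ± 2.56 at day 4, 38.8% ± 1.27 at day 8 and 30.4% ± 0.461 at day 29. Between Cre day 4 and day 8 the mean over 336 CpGs fell, with every day 8 sample below every day 4 sample, from 33.8% ± 1.03 to 29.7% ± 0.771, by 4.14 percentage points (two-sided exact permutation test, p = 0.10). Of 349 CpGs, 1 (0.287%) passed the test between these days, a CpG of the REST-bound LMR near 4931423N10Rik that went from 24.4% to 8.47%, and 57 reached an unadjusted p under 0.05.

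**Figure D4:**
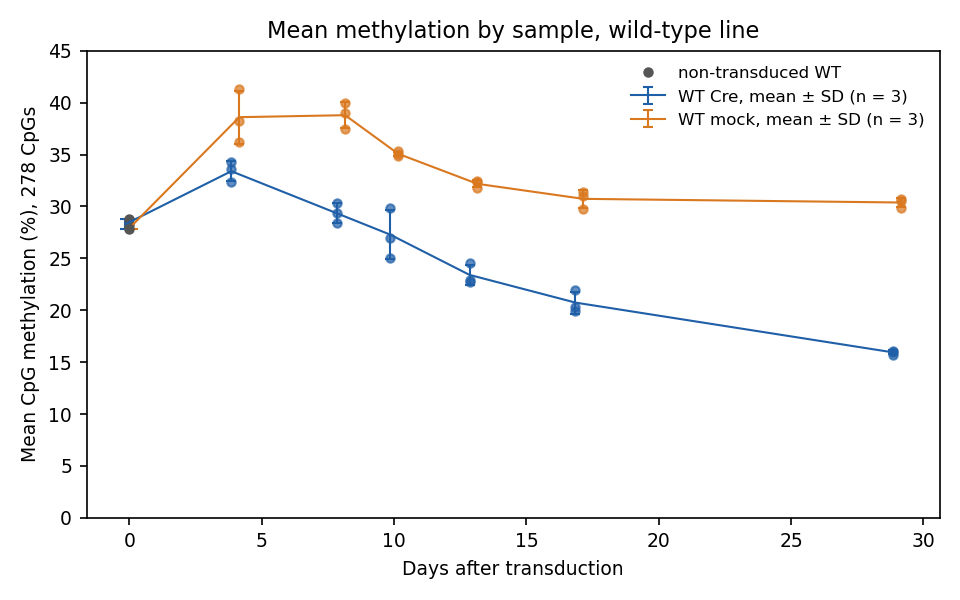
Mean methylation (percent) over 278 CpGs against days after transduction, with a point per sample and lines and bars for mean ± SD of 3, for WT Cre and WT mock from the shared non-transduced day 0 samples. Both rise by day 4, to 33.4% after Cre and 38.6% after mock, and Cre then falls to 15.9% at day 29.

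In the TTKO line, which lacks TET, the mean was lower at Cre day 4 than at day 0. Over 357 CpGs with a level in all 12 samples, the wild-type mean went from 25.8% ± 0.452 to 30.9% ± 1.19 and the TTKO mean from 39.1% ± 0.467 to 36.1% ± 0.934 between day 0 and Cre day 4 (SD, n = 3 each). All wild-type Cre samples lay above and all TTKO Cre samples below their day 0 samples. The lines also differed without Cre: over 345 CpGs, mock day 4 minus day 0 was 10.6 percentage points (SE 1.41) in wild type and 0.782 (SE 0.837) in TTKO, where the samples overlapped (two-sided exact permutation test, p = 0.40). In an interaction term of the same model, the day 4 change differed between lines in 36 of 357 CpGs (10.1%), 35 of them relatively higher in wild type and 1, near Id3, relatively lower. With the replicate number as a block the count was 17 and by limma 20, all higher in both, so the call near Id3 was lost. The count was 0 without wild-type day 0 replicate 2, 1 without wild-type day 0 replicate 1 and 72 without wild-type Cre replicate 2. In the TTKO line alone, 1 of 366 CpGs (0.273%) passed the test, near 3830408C21Rik and lower at Cre day 4, and 83 reached an unadjusted p under 0.05. Each line began from its own level, and the TTKO line is 1 clone, so genotype and clone cannot be told apart.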

How the data were processed

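Methylation was measured by amplicon bisulfite sequencing, and the groups were taken from the sample labels. The authors used QuasR (Rbowtie, mm9 genome) for alignment and AmpliconBiSeq for the calls, and deposited, per CpG and sample, the coverage as a count of reads and the methylation level as a fraction of them, with no level below 100 reads and no normalization. Coverage times level gave whole methylated reads (within 1e-06 of a read) at 100% of the 15652 wild-type and 15686 TTKO values that have a level. Deposited columns of inferred rates and the pooled capture table were not used.

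Levels were expressed as percent. Methylated and unmethylated reads, with 0.5 added to each, entered a quasi-binomial logistic model per CpG (R 4.3.3, limma 3.58.1 squeezeVar, dispersion at least 1), two-sided, with Benjamini-Hochberg adjustment at 0.05. The model was also run on simulated counts, drawn independently for each CpG with a common dispersion. CpGs of an amplicon share reads, so that run does not show how reliable the calls here are. Means were compared by exact permutation (scipy 1.17.1). Named CpGs were the 8 largest rises and falls without overlap, past the threshold where any were, at most 1 per amplicon, the CpG nearest each class median, and the 4 highest and lowest amplicons with at least 3 CpGs. The members and lists were chosen with earlier results of these data known.

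Reads are PCR copies that carry no molecular identifiers, so the 95% Wilson interval of a named level, at most 2.68 percentage points to either side, covers counting error only. Alternatives were a replicate block, read minimum, added count, limma, level range, CpG set, weighting and leaving out each sample. Replicate numbers were not taken as pairs, as explained in the closing section.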

Additional observations from a re-analysis of the deposited data

Results flagged for a closer look

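The change between day 0 and Cre day 4 differed between the wild-type and TTKO lines. The number of CpGs past the interaction test was 36, of which 33 were higher at Cre day 4 in wild type and lower in TTKO. They lay in 17 amplicons, with 6 of 22 tested CpGs in FMRs (27.3%), 3 of 12 in the methylated island, 11 of 64 in ES-specific LMRs (17.2%), 13 of 93 in REST-bound LMRs, 2 of 82 in UMRs and 1 of 46 in other constitutive LMRs, against 10.1% of all CpGs tested. Their median change was 9.56 percentage points in wild type and -4.02 in TTKO. The test picks CpGs whose changes differ, so opposite directions and a wide gap are favoured by the choice. Without that choice, the mean changes over 357 CpGs were 5.13 percentage points in wild type and -3.06 in TTKO.

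Over 357 CpGs the mean change in wild type exceeded that in TTKO by 8.19 percentage points (SE 0.950), with all wild-type Cre samples above and all TTKO Cre samples below the day 0 samples of their line. This difference of the means was not tested by itself.

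Among the named CpGs, 6 passed the interaction test, of which Traf3 alone passed with the replicate block and Adra2a alone by limma. The largest rises and falls were named by their wild-type change in the same samples, which favours passing. The 6 are therefore no separate support for a difference between the lines, and the share over all CpGs tested was 10.1%. None of the 6 passed without wild-type day 0 replicate 1, without wild-type day 0 replicate 2 or without TTKO day 0 replicate 2, and 1 to 6 passed without any other single sample. The log2 odds ratio of the wild-type change over the TTKO change was 2.13 at the CpG near 4931423N10Rik, 1.65 in Atp2b2, 0.99 in Calhm2, 1.34 in Traf3, 3.11 near Adra2a and -2.18 near Id3. The UMR CpG near Id3 was the only 1 of these that was relatively lower in wild type, from 4.14% to 1.02%, against 3.68% and 4.28% in TTKO, with an adjusted p of 0.0289 in the quasi-binomial model, 0.0652 with the block, 0.0576 by limma and 0.0227 to 0.0766 when 1 sample was left out.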

How the results depend on the processing

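The means kept their direction under every alternative tried. For Cre day 4 minus day 0 they ranged from 2.78 percentage points (median over CpGs) to 8.23 (day 0 level 10% to 90%), and leaving out 1 sample gave 4.45 to 5.53. The replicate block (mean of the within-number differences) left the differences at 4.92, 10.6, -5.51 and -4.14 percentage points, with p = 0.25 in an exact sign-flip test, the smallest that 3 pairs allow.

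Counts of CpGs past the test moved more. For Cre day 4 against day 0, limma gave 5 against 17, and leaving out 1 sample 0 to 60. For mock day 4 against day 0, the replicate block gave 0, limma 28 (13 higher, 15 lower), levels of 10% to 90% 27, and leaving out 1 sample 0 to 121. For Cre against mock at day 4, limma gave 4 (2 higher near Hdac2 and 2 lower, in AU022751 and near Gm10295), and leaving out 1 sample 0 to 4. For the difference between lines, the replicate block gave 17, limma 20, levels of 10% to 90% 55, and leaving out 1 sample 0 to 72. The cause was not tested. For Cre day 4 against day 0 the replicate block gave 17, 11 of them among the first 17, and the dispersion from all 39 wild-type samples gave 15 among the 278 CpGs it could test, which held 10 of the first 17 and passed 5 of these. Same-numbered samples deviated from their group means with correlations of 0.082, 0.058 and -0.27 across CpGs, so the numbers were not taken as pairs.

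The 8 named CpGs that passed the test lost the call in 40 of 93 fits (43.0%). All 8 lost it by limma (adjusted p of 0.0565 to 0.116) and without day 0 replicate 1 (0.0965 to 0.198) or 2 (0.0889 to 0.198), 5 without day 0 replicate 3, 4 with the block, 3 without Cre replicate 1 and 1 without Cre replicate 2. With the dispersion from all 39 samples 3 of the 5 tested lost it. Of 185 fits of the 17 named CpGs not called, 7 gained a call and 4 reversed. Class means kept their direction, and 4 values moved by more than the replicate spread: on pooled reads 8.52 in FMRs (11.6 before), 2.94 in other constitutive LMRs (5.96) and 5.82 in REST-bound LMRs (4.13), which were at 3.14 with equal weight for each amplicon. The uncalled 1810063B07Rik CpG at chr14:20901954 had log2 odds ratios of -0.033 with the block, -1.05 by limma and -0.13 without Cre replicate 2 (-0.13 to 0.13 over the samples left out), and the uncalled 2700060E02Rik CpG 0.35 without Cre replicate 3 (-0.46 to 0.35). The tests per CpG of TTKO Cre day 4 against day 0 and of wild-type Cre day 8 against day 4, and the means without Zfp704 (ES-specific class included), without UMRs and with 1000 reads, were added after the data were seen.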
